A study of Saccharomyces cerevisiae with 19 samples.

Results

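AAD3, AAD4 and AAD6 are 3 related genes that lie near 3 different chromosome ends of the budding yeast Saccharomyces cerevisiae, and Sir3 binding over them was followed here across 11 groups of strains. The members were set by their annotated coding regions: 9 chromosomal probes lay inside these regions, and the 3 genes were 3 of 4214 genes with enough probes to be tested. AAD3 (YCR107W) lies at the right end of chromosome 3, AAD4 (YDL243C) at the left end of chromosome 4 and AAD6 (YFL056C) at the left end of chromosome 6. The R64 annotation lists AAD3 and AAD4 as protein-coding and AAD6 as a pseudogene, with the systematic name of AAD16 (YFL057C) among the synonyms of AAD6.

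The arrays compared Sir3 spreading between strains with changed amounts or forms of silencing proteins. All groups carried a fusion of RAP1 with GFP at the RAP1 locus (LEU2-marked). Strain yAT3183 (dot1 pGPD-SIR3 NAM, 2 arrays) carried dot1::KanMx and sir3::GPD-SIR3(NAT), and yAT1254 (pGPD-SIR3 NAM, 2 arrays) carried sir3::GPD-SIR3(NAT) alone; both were sampled 8 h after release into fresh YPD from medium with 5 mM nicotinamide (NAM). Strain yAT1256 (pGPD-SIR3-A2Q, 2 arrays) expressed the point mutant SIR3-A2Q from the GPD promoter. Strain yAT1668 (pGPD-SIR2 pGPD-SIR3, 2 arrays) overexpressed both genes and yAT1667 (pGPD-SIR2, 1 array) only SIR2, both with RDN1::ADE2. The promoter series consisted of WT (yAT191, 2 arrays), pADH-SIR3 (yAT2627, 2 arrays), pTEF-SIR3 (yAT2629, 2 arrays) and pGPD-SIR3, the last in 3 strains: yAT1254 (2 arrays), yAT2554 (1 array) and yAT2476 (1 array). WT, yAT1254, yAT1256 and yAT3183 shared ade2-1::ADE2, ppr1Δ::HIS3 and a URA3 construct that ends the left arm of chromosome 7 at ADH4, whereas yAT2627, yAT2629 and yAT2554 had ade2-1::ADE2 and a deletion of HML (HPH-marked), and yAT2476 had neither set. The promoter of SIR3 and these marker loci therefore differ together between WT and the pADH-SIR3 and pTEF-SIR3 strains. Where no strain is named, "pGPD-SIR3" means yAT1254 below. By their titles, the untreated arrays of WT, yAT2627, yAT2629, yAT2554, yAT1254 and yAT1256 came from exponential growth (Expo) in glucose (Glu). Titles of the nicotinamide arrays also say Expo, and those of yAT1667, yAT1668 and yAT2476 name no growth phase or carbon source. Nothing in the labels says that arrays of a group came from separate cultures, so the p-values rest on the spread between arrays alone, and this spread may be technical.

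The AAD genes encode proteins similar to the aryl-alcohol dehydrogenase of the lignin-degrading fungus Phanerochaete chrysosporium, an enzyme that reduces aromatic aldehydes. Most of the yeast copies lie close to chromosome ends, and their sequences are similar enough that DNA from one copy may hybridise to probes of another. Sir3 is a structural subunit of the SIR complex. It binds nucleosomes, and together with the histone deacetylase Sir2 it spreads inward from telomeres and silences the genes it covers. Nicotinamide inhibits Sir2, and Dot1 methylates lysine 79 of histone H3, a mark that hinders Sir3 binding.

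The arrays came in 2 deposits, the first of 12 arrays and a later one of 7 with all arrays after nicotinamide and array 2 of the strains with both SIR2 and SIR3 overexpressed, with pTEF-SIR3 and with pADH-SIR3. The amount of Sir3 protein was not measured on them. Each array gave, per probe, the ratio of DNA precipitated with an antibody against Sir3 to input DNA. All values below are log2 ratios minus the median of the array, so a value of 0 is the level of the middle probe on an array and does not mean that Sir3 is missing. Between 40247 and 41270 of 41480 chromosomal probes had a ratio on an array, and precision is limited by how few arrays a group has. The 2 dot1 arrays stood apart: the spread of genes far from chromosome ends (scaled median absolute deviation) was 0.515 and 0.526 on them and 0.185 to 0.284 on the other 17. As a check of the precipitation, HMRA1 at the silent mating locus HMR, a classical target of the SIR complex, averaged 7.23 ± 0.41 in WT (SD, n = 2). It was lower in every other group. Its means were 6.49 in pGPD-SIR3, 5.91 in pGPD-SIR2, 5.61 in pGPD-SIR3 NAM, 4.98 in yAT2476 and 4.93 in pTEF-SIR3. They were 4.88 in yAT2554, 4.68 in pADH-SIR3, 4.07 in pGPD-SIR2 pGPD-SIR3, 3.84 in dot1 pGPD-SIR3 NAM and 1.47 in A2Q. Whether precipitation differed between the groups was not tested. YFR057W, a silenced gene near the right end of chromosome 6, had too few probes to be tested.

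The probes averaged per gene were few, and their positions are given as in the files, whose genome build no source used here gives. AAD3 was read from 2 probes spanning positions 314135 to 314524 of chromosome 3, which lie 1.04 to 1.43 kb from the outermost probe of that end. AAD4 was read from 3 probes spanning 17677 to 18469 of chromosome 4, 17.7 to 18.5 kb from the left end. AAD6 was read from 2 probes spanning 14890 to 15163 of chromosome 6, 14.9 to 15.2 kb from the left end. These probes stay inside the R64 coding regions for any offset between the builds from -97 to 100 bp for AAD4, from -457 to 245 bp for AAD3 and from -268 to 585 bp for AAD6. The offset that matched coding regions best was 50 bp on chromosome 4, -75 bp on chromosome 3 and 375 bp on chromosome 6, where the match was weak.

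The arrays read many cells at once, so fewer cells with Sir3 at a gene and less Sir3 per cell cannot be told apart, and ratios of different genes also carry the response of their own probes. With that limit, AAD3 had the highest mean log2 ratio of the 3 genes in every group but SIR3-A2Q. On the 15 arrays outside the dot1 and A2Q groups it ranked between 9 and 26 among 4214 genes, AAD6 between 22 and 50, and AAD4 between 35 and 145. AAD3 had its lowest group mean with pGPD-SIR3-A2Q, 0.28 ± 0.16, and its highest with pGPD-SIR3, 6.16 ± 0.17 (SD, n = 2 each). AAD4 was highest with pGPD-SIR2 pGPD-SIR3, 3.48 ± 0.44, and lowest with pGPD-SIR3-A2Q, 0.18 ± 0.0042 (SD, n = 2 each). AAD6 was also highest with pGPD-SIR2 pGPD-SIR3, 4.24 ± 0.51, and lowest with pGPD-SIR3-A2Q, 0.35 ± 0.025 (SD, n = 2 each). In the order of AAD3 means, the 6 groups after pGPD-SIR3 ran from pGPD-SIR3 in yAT2554 (5.52) to pGPD-SIR2 pGPD-SIR3 (4.57), and the arrays of each overlapped those of the next. Below them dot1, WT, pGPD-SIR2 and A2Q followed at 3.46, 2.94, 2.60 and 0.28, with no overlap between neighbours. In the order of AAD6 means the first 5 groups, pGPD-SIR2 pGPD-SIR3, pGPD-SIR3 in yAT2476 and yAT1254, pTEF-SIR3 and pGPD-SIR3 in yAT2554, overlapped from one to the next between 4.24 and 3.95. They were followed at a distance by pGPD-SIR3 NAM (2.81) and pADH-SIR3 (2.54), which overlapped, and then by pGPD-SIR2 (1.70), dot1 (1.61) and WT (1.26), which also overlapped from one to the next. In the order of AAD4 means, dot1 (0.92) overlapped WT (0.77), while pADH-SIR3 (1.49) overlapped both pGPD-SIR3 NAM (1.82) above it and pGPD-SIR2 (1.25) below it.

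**Figure D1:**
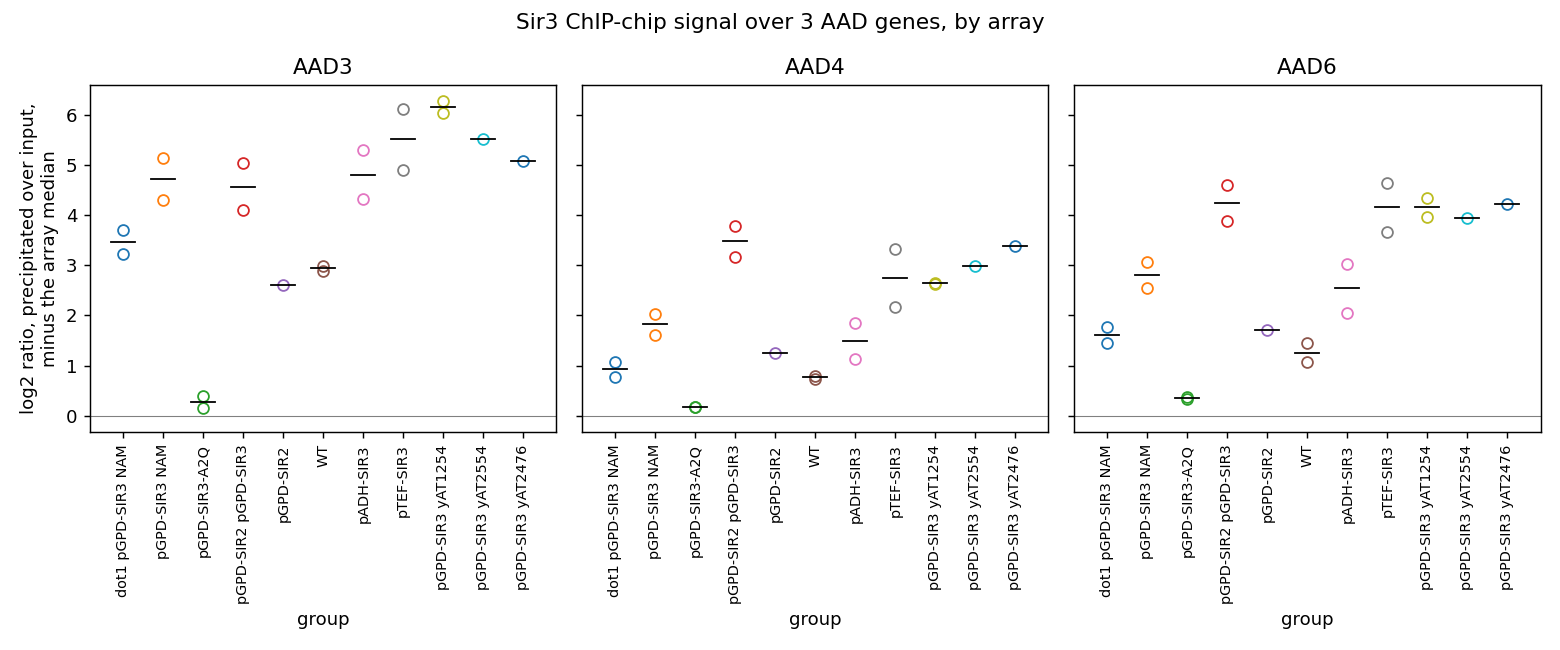
Log2 ratio of precipitated over input DNA minus the array median (y axis) for AAD3, AAD4 and AAD6 on each of 19 arrays, by group (x axis). Circles are arrays and bars are group means; all 3 genes lie near 0 in the A2Q group, and AAD3 is at 2.89 and 2.99 in WT while AAD4 is at 0.73 and 0.80 there.

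Driving SIR3 from the ADH promoter put more Sir3 signal on all 3 genes in both arrays, but none of the differences passed the test. AAD3 had log2 ratios of 5.29 and 4.32 in pADH-SIR3, against 2.89 and 2.99 in WT, a difference of 1.87 ± 0.42 (SE; adjusted p = 0.0627, limma with Benjamini-Hochberg adjustment over 4214 genes). AAD6 had 3.03 and 2.05 in pADH-SIR3, against 1.46 and 1.06 in WT, a difference of 1.28 ± 0.36 (adjusted p = 0.142). AAD4 had 1.84 and 1.14 in pADH-SIR3, against 0.73 and 0.80 in WT, a difference of 0.72 ± 0.32 (adjusted p = 0.327). The arrays of both groups did not overlap for any of the 3, which was so for 38.0% of all genes, and 3 of 3 had an unadjusted p under 0.05 in limma. At the adjusted threshold of 0.05, 0 of 3 passed, against 0.925% of all genes tested. In the 3 groups with an array in each deposit the array of the later one was lower at every AAD gene, in 9 of 9 pairs, by 0.62 to 1.20. With the deposit as a block all 3 pADH-SIR3 differences passed, at 2.38 for AAD3, 1.73 for AAD6 and 1.14 for AAD4 (adjusted p = 0.000199, 0.00049 and 0.00272), and within the first deposit, with 1 pADH-SIR3 array, they were 2.35, 1.77 and 1.08.

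With the TEF promoter all 3 genes rose over WT. AAD6 had 4.64 and 3.67 in pTEF-SIR3, against 1.46 and 1.06 in WT, which is a 7.44-fold higher ratio (difference 2.89 ± 0.36, adjusted p = 0.000182). AAD3 had 6.11 and 4.91 in pTEF-SIR3, against 2.89 and 2.99 in WT (2.57 ± 0.42, adjusted p = 0.00168). AAD4 had 3.31 and 2.16 in pTEF-SIR3, against 0.73 and 0.80 in WT (1.97 ± 0.32, adjusted p = 0.00165). Thus 3 of 3 rose, against 8.16% of all genes that rose and 9.02% that passed in either direction. Of the 418 genes within 50 kb of a chromosome end 27.8% passed, 112 rising and 4 falling. On the 1 slide that held both groups the differences were 3.58 for AAD6, 3.11 for AAD3 and 2.51 for AAD4. When arrays were scaled by their internal spread, AAD3 and AAD4 no longer passed (adjusted p = 0.12 and 0.0517), nor did AAD4 in a fit of only the arrays of these groups (adjusted p = 0.0553).

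The GPD promoter gave rises of the same kind in the strain with the marker loci of WT. AAD3 had 6.28 and 6.03 in pGPD-SIR3, against 2.89 and 2.99 in WT, a 9.30-fold higher ratio (3.22 ± 0.42, adjusted p = 0.000284). AAD6 had 4.35 and 3.97 in pGPD-SIR3, against 1.46 and 1.06 in WT (2.90 ± 0.36, adjusted p = 0.000164). AAD4 had 2.65 and 2.63 in pGPD-SIR3, against 0.73 and 0.80 in WT (1.87 ± 0.32, adjusted p = 0.0026). Here 3 of 3 rose, against 6.67% of all genes that rose and 7.76% that passed in either direction. Of those within 50 kb of an end 25.6% passed, 106 rising and 1 falling. On the slide that held an array of each group the differences were 3.39, 2.89 and 1.91 for AAD3, AAD6 and AAD4. The other pGPD-SIR3 strains had 1 array each: AAD3 was at 5.52 in yAT2554 and 5.07 in yAT2476, AAD6 at 3.95 and 4.22, and AAD4 at 2.99 and 3.38 in the same strains.

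Within the promoter series the genes were not tested against each other, and each step is given for each gene. Between pTEF-SIR3 and pADH-SIR3, only AAD6 passed: it had 4.64 and 3.67 in pTEF-SIR3, against 3.03 and 2.05 in pADH-SIR3 (1.61 ± 0.36, adjusted p = 0.0245). AAD4 differed by 1.25 ± 0.32 (adjusted p = 0.0559) with no overlap of arrays, and AAD3 by 0.70 ± 0.42 (adjusted p = 0.65) with overlap. That is 1 of 3 against 3.75% of all genes, and 2 of 3 genes without overlap against 43.1% of all genes. The AAD6 call was lost without array 1 of pTEF-SIR3 (adjusted p = 0.193) or array 2 of pADH-SIR3 (adjusted p = 0.256), and AAD4 passed without array 2 of pTEF-SIR3 (1.82, adjusted p = 0.00454). With the deposit as a block, AAD4 also passed (1.25, adjusted p = 0.000284). Within each deposit the AAD6 difference was 1.61 and 1.62, and that of AAD4 1.47 and 1.02. Between pGPD-SIR3 and pTEF-SIR3 the arrays overlapped for all 3 genes, and 0 of 3 passed in limma, also at an unadjusted p of 0.05, against 0.451% of all genes. The differences and their 95% confidence intervals were 0.65 (-0.27 to 1.57) for AAD3, -0.10 (-0.81 to 0.60) for AAD4 and 0.00249 (-0.78 to 0.78) for AAD6. The sign of the AAD4 and AAD6 values turned under several settings, as listed at the end.

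The A2Q form of Sir3, expressed from the GPD promoter, was close to the array median at all 3 genes. AAD3 had 0.16 and 0.39 in pGPD-SIR3-A2Q, against 6.28 and 6.03 in pGPD-SIR3, the fall being 5.88 ± 0.42 on the log2 scale, with a ratio of 0.017 (adjusted p = 8.04e-07). AAD6 had 0.33 and 0.37 in pGPD-SIR3-A2Q, against 4.35 and 3.97 in pGPD-SIR3, a difference of -3.81 ± 0.36 (adjusted p = 8.57e-06). AAD4 had 0.18 in both arrays of pGPD-SIR3-A2Q, against 2.65 and 2.63 in pGPD-SIR3, a difference of -2.46 ± 0.32 (adjusted p = 0.000181). All 3 genes fell, against 9.49% of all genes that passed and 8.14% that fell. The slide with both A2Q arrays and 1 pGPD-SIR3 array gave -5.76, -3.62 and -2.45 for AAD3, AAD6 and AAD4. Set against WT, only AAD3 fell: it had 0.16 and 0.39 in pGPD-SIR3-A2Q, against 2.89 and 2.99 in WT (-2.66 ± 0.42, adjusted p = 0.00748). AAD6 differed from WT by -0.91 ± 0.36 (adjusted p = 0.176) and AAD4 by -0.59 ± 0.32 (adjusted p = 0.317), with every A2Q array below every WT array. This was 1 of 3 against 1.59% of all genes that passed and 1.12% that fell, with 3 of 3 not overlapping against 41.4% of all genes, and the AAD3 call was lost without array 1 of A2Q (adjusted p = 0.101) or array 2 of WT (adjusted p = 0.0554). AAD6 also passed with the deposit as a block (adjusted p = 0.0293), and AAD4 when the fit held the first deposit alone (adjusted p = 0.0414).

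Overexpression of SIR2 alone gave no call at the AAD genes. With SIR2 and SIR3 both overexpressed, AAD3 was lower than in pGPD-SIR3, with no call at AAD4 or AAD6. In the single pGPD-SIR2 array AAD3 was at 2.60, AAD4 at 1.25 and AAD6 at 1.70, against WT means of 2.94, 0.77 and 1.26. The differences were -0.34, 0.48 and 0.44 (adjusted p = 0.755, 0.518 and 0.603); in limma 0 of 3 passed, also at an unadjusted p of 0.05, against 2.35% of all genes. The SIR2 array lay outside the WT arrays for 3 of 3 genes, as for 66.9% of all genes. With SIR2 and SIR3 overexpressed together, AAD3 was below its level in pGPD-SIR3: it had 5.03 and 4.10 in pGPD-SIR2 pGPD-SIR3, against 6.28 and 6.03 in pGPD-SIR3 (-1.59 ± 0.42, adjusted p = 0.0267). SIR2 and the marker loci differ together between these strains, and array 2 of pGPD-SIR2 pGPD-SIR3 came from the later deposit. In the other strains with pGPD-SIR3 alone, AAD3 was at 5.52 (yAT2554) and 5.07 (yAT2476). AAD4 had 3.79 and 3.17 in pGPD-SIR2 pGPD-SIR3, against 2.65 and 2.63 in pGPD-SIR3 (0.84 ± 0.32, adjusted p = 0.1). AAD6 had 4.60 and 3.88 in pGPD-SIR2 pGPD-SIR3, against 4.35 and 3.97 in pGPD-SIR3 (0.08 ± 0.36, adjusted p = 0.91, 95% confidence interval -0.70 to 0.86). Here 1 of 3 fell, against 6.67% of all genes that fell and 14.5% that passed. Arrays did not overlap for 2 of 3, AAD3 and AAD4, against 64.5% of all genes. The AAD3 call was lost without either array of pGPD-SIR3 (adjusted p = 0.129 and 0.0957) and without array 2 of pGPD-SIR2 pGPD-SIR3 (-1.12, adjusted p = 0.206), and AAD4 passed with the deposit as a block (1.26, adjusted p = 0.000617).

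Against WT, all 3 genes rose when both proteins were overexpressed. AAD6 differed by 2.98 ± 0.36 (adjusted p = 9.88e-05), AAD4 by 2.71 ± 0.32 (adjusted p = 8.9e-05) and AAD3 by 1.63 ± 0.42 (adjusted p = 0.0185). This compares with 13.4% of all genes that rose and 19.4% that passed in either direction. Of those within 50 kb of an end 37.8% passed, 143 rising and 15 falling. On the slide that held an array of each group the differences were 3.53, 2.99 and 2.04 for AAD6, AAD4 and AAD3. When arrays were scaled by their internal spread, AAD3 no longer passed (adjusted p = 0.256). The AAD3 call was lost without array 1 of pGPD-SIR2 pGPD-SIR3 (1.16, adjusted p = 0.145) or array 1 of WT (adjusted p = 0.0588).

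After release from nicotinamide, the 3 genes carried more Sir3 signal than in WT, and AAD6 carried less than in pGPD-SIR3 cells that had not been treated. Over WT all 3 rose: AAD3 had 4.29 and 5.14 in pGPD-SIR3 NAM, against 2.89 and 2.99 in WT (1.78 ± 0.42, adjusted p = 0.013). AAD6 had 2.55 and 3.06 in pGPD-SIR3 NAM, against 1.46 and 1.06 in WT (1.55 ± 0.36, adjusted p = 0.0117). AAD4 had 1.62 and 2.03 in pGPD-SIR3 NAM, against 0.73 and 0.80 in WT (1.06 ± 0.32, adjusted p = 0.0374). The 3 of 3 stand against 12.1% of all genes that rose and 20.1% that passed. Relative to untreated pGPD-SIR3, only AAD6 fell, by 1.35 ± 0.36 on the log2 scale (adjusted p = 0.0382), while AAD3 differed by -1.44 ± 0.42 (adjusted p = 0.0552) and AAD4 by -0.81 ± 0.32 (adjusted p = 0.135). The arrays did not overlap for any of the 3, as for 62.6% of all genes, and 1 of 3 fell against 4.94% of all genes that fell and 8.59% that passed. All NAM arrays came from the later deposit and all untreated pGPD-SIR3 and WT arrays from the first, so no value within a deposit exists. With the deposit as a block, estimated from the other groups, the differences from untreated pGPD-SIR3 were -0.46 for AAD6 (adjusted p = 0.364), -0.41 for AAD3 and 0.01 for AAD4, while those from WT were 2.44, 2.81 and 1.88 and all passed. Without array 2 of pGPD-SIR3 NAM no gene passed against WT (adjusted p = 0.108, 0.194 and 0.0872 for AAD3, AAD4 and AAD6), without array 2 of WT only AAD3 did, without array 1 of WT or of pGPD-SIR3 NAM all but AAD4 did (adjusted p = 0.0915 and 0.0858), and the fall of AAD6 from untreated pGPD-SIR3 was lost without any one of the 4 arrays (adjusted p = 0.0768 to 0.271).

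In the dot1 strain released from nicotinamide the 3 genes were lower than in the DOT1 strain treated alike. AAD3 had 3.23 and 3.70 in dot1 pGPD-SIR3 NAM, against 4.29 and 5.14 in pGPD-SIR3 NAM (-1.25 ± 0.42, adjusted p = 0.0262). AAD6 had 1.44 and 1.77 in dot1 pGPD-SIR3 NAM, against 2.55 and 3.06 in pGPD-SIR3 NAM (-1.20 ± 0.36, adjusted p = 0.0147). AAD4 had 0.77 and 1.08 in dot1 pGPD-SIR3 NAM, against 1.62 and 2.03 in pGPD-SIR3 NAM (-0.90 ± 0.32, adjusted p = 0.0341). All 3 fell, in a comparison in which 51.5% of all genes passed and 24.0% fell; among genes within 50 kb of an end 78 fell and 175 rose. The rank of AAD4 among all genes was 690 and 480 on the dot1 arrays, against 79 and 61 on the NAM arrays, and that of AAD6 was 271 and 212 against 41 and 39, whereas AAD3 ranked 12 and 16 against 16 and 14. The wider spread of the dot1 arrays given above moves with this comparison. With arrays scaled by their internal spread, AAD4 no longer passed (adjusted p = 0.0827), while AAD3 and AAD6 still did. AAD4 was also lost with the median of its probes (-0.69, adjusted p = 0.0744). The part of the spread in the result was not tested further. Without array 1 of dot1 (adjusted p = 0.0907 to 0.168) or array 2 of pGPD-SIR3 NAM (adjusted p = 0.113 to 0.211) none of the 3 passed, and AAD4 was also lost without array 2 of dot1 (adjusted p = 0.061).

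**Figure D2:**
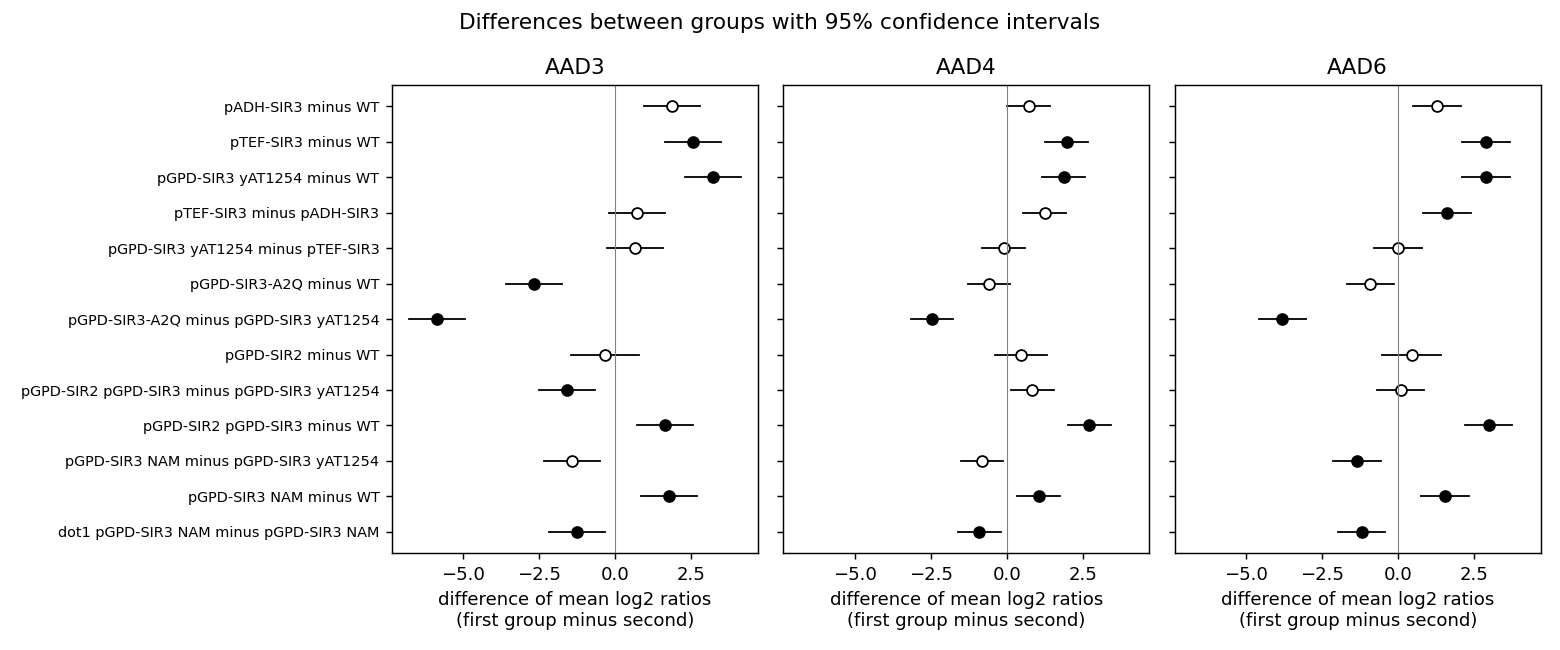
Difference of mean log2 ratios, first group minus second (x axis), for AAD3, AAD4 and AAD6 in 13 comparisons (rows), with bars for 95% confidence intervals from limma. Filled circles have an adjusted p under 0.05; the lowest values are those of A2Q against pGPD-SIR3, from -5.88 for AAD3 to -2.46 for AAD4.

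The 3 genes sat in different Sir3 landscapes. AAD3 lay within a stretch that was high throughout with any overexpression of wild-type Sir3: the 3 nearest probes outside its coding region toward the chromosome centre, at 356 to 813 bp from the averaged probes, had 4.80 ± 0.90 in pADH-SIR3 and 6.19 ± 0.37 in pGPD-SIR3 (SD, n = 2 each), and the gene differed from them by 0.0014 and -0.04. In WT this inner flank was at 1.86 ± 0.44 and AAD3 stood 1.08 above it, while the probe between them, inside AAD3 at 313934 to 313990, was at 2.82. The outermost measured probe of the chromosome, inside AAD3 at 314866 to 314925, averaged 4.34 in pGPD-SIR2 and 4.52 in WT, against group means of 2.71 in pGPD-SIR2 and 2.86 in WT at the averaged probe that begins at 314135. No array measured a probe beyond it.

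Inward of AAD4 the signal was low in WT and pADH-SIR3 and went further in the pGPD-SIR3 strains and with SIR2 and SIR3. The 3 nearest inner probes, ending 964 bp from the averaged probes, had -0.0086 ± 0.094 in pADH-SIR3 and -0.08 ± 0.21 in WT, so that AAD4 stood 1.08 and 1.92 above them on the pADH-SIR3 arrays, and 0.66 and 1.03 above them on the WT arrays (SD of the flank, n = 2 each). In pGPD-SIR2 pGPD-SIR3 the same flank was at 3.63 ± 0.58, and the gene did not stand above it (-0.15 ± 0.15), while in pGPD-SIR3 the flank was at 1.42 ± 0.06. A running mean of 5 probes stayed above 1 until 5.25 and 4.87 kb inward of AAD4 with SIR2 and SIR3, until 2.53 and 1.34 kb in pGPD-SIR3 yAT1254, until 4.01 kb in yAT2554, until 4.26 kb in yAT2476 and until 4.01 kb in array 1 of pTEF-SIR3. In array 2 of pTEF-SIR3, and in all arrays of WT, pADH-SIR3, pGPD-SIR2, A2Q, NAM and dot1, it was already below 1 in the first window, centred 0.935 kb inward. AAD4 itself averaged below 1 in dot1 (0.92), WT (0.77) and A2Q (0.18), so for these groups the threshold does not show where a signal ended.

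Inward of AAD6 the flank was high with the TEF promoter and low with the ADH promoter. The 3 nearest inner probes had 3.75 ± 0.89 in pTEF-SIR3, against 0.71 ± 0.07 in pADH-SIR3 (SD, n = 2 each), and 0.40 ± 0.16 in WT. In pADH-SIR3 the gene stood 1.84 ± 0.62 above this flank, in pTEF-SIR3 0.41 ± 0.21 above it and in pGPD-SIR2 pGPD-SIR3 0.13 ± 0.22 above it. The running mean stayed above 1 for 19.1 and 10.2 kb inward in pTEF-SIR3, for 9.17 and 8.54 kb in pGPD-SIR3 yAT1254, for 9.75 kb in yAT2554, for 19.1 kb in yAT2476, for 19.7 and 18.9 kb with SIR2 and SIR3, and for 6.85 and 7.74 kb in pGPD-SIR3 NAM. In pADH-SIR3, WT, A2Q and array 1 of dot1 it was below 1 in the first window, centred 0.962 kb inward. In pGPD-SIR2 and array 2 of dot1 it fell below 1 at 1.52 kb. Only the first fall is given: in pGPD-SIR2 the probe 5.10 kb inward of the middle of the averaged probes was at 2.20. The 2 outer probes within 2.5 kb of the gene were at 3.47 in pADH-SIR3, against 1.42 in WT.

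**Figure D3:**
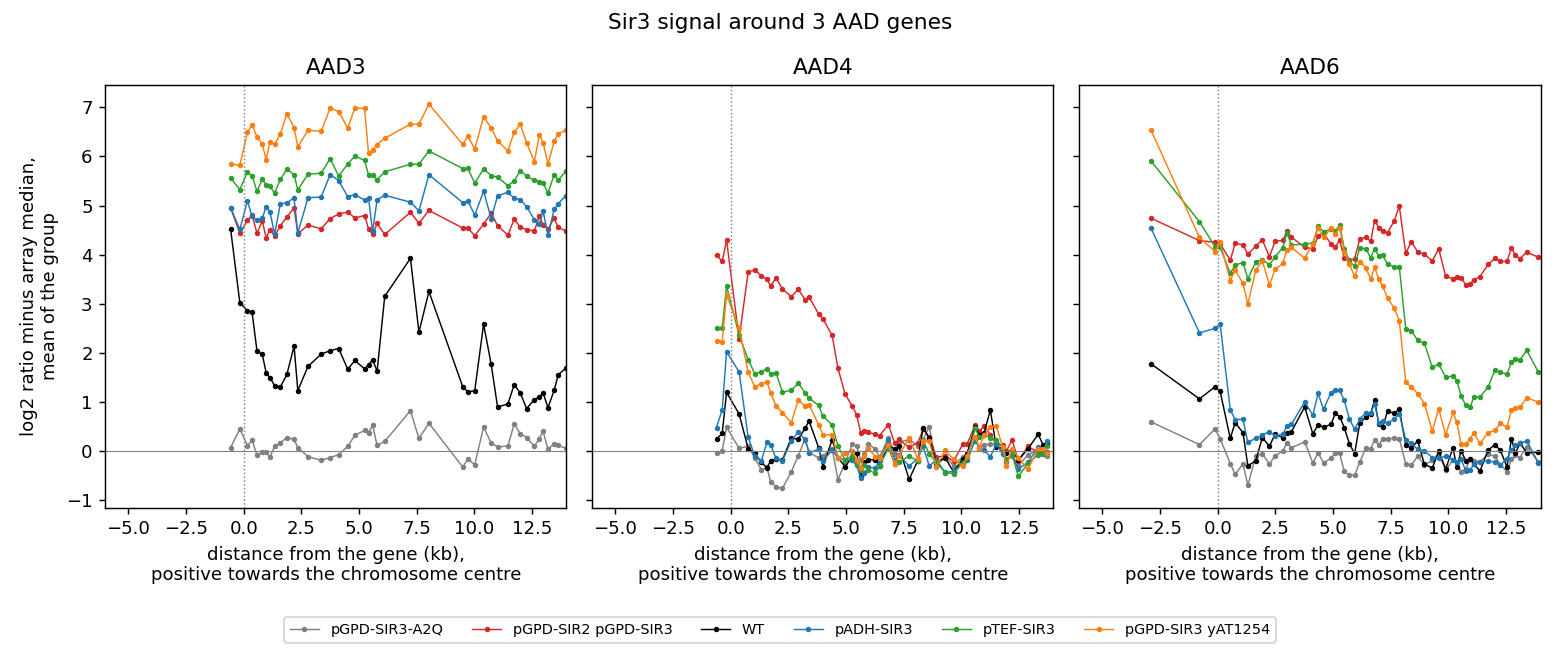
Mean log2 ratio minus array median (y axis) of each measured probe against its distance from AAD3, AAD4 or AAD6 in kb, positive towards the chromosome centre (x axis), for 6 groups. Around AAD4 the line of pGPD-SIR2 pGPD-SIR3 stays high for about 5 kb (5.25 and 4.87 kb on the arrays), and around AAD6 the lines of pADH-SIR3 and WT drop right after the gene while those of pTEF-SIR3 and pGPD-SIR3 do not.

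Taken over all arrays, AAD4 lay above its inner flank on 17 of 19, AAD6 on 18 of 19 and AAD3 on 11 of 19, with median differences of 1.03, 0.63 and 0.10. With A2Q, whose levels were near the array median, AAD4 still stood 0.32 and 0.33 above its flank, AAD6 0.79 and 0.57 and AAD3 0.30 and 0.35. Different probes are set against each other here, so these are descriptions without a test, and the part of the probes' own response was not tested. The AAD4 probes did not move alike: the one at 17868 to 17925 averaged 4.30 in pGPD-SIR2 pGPD-SIR3 and 1.19 in WT, while the one at 18411 to 18469 averaged 2.28 in pGPD-SIR2 pGPD-SIR3, below the inner flank at 3.63, and 0.75 in WT. In pGPD-SIR3 NAM the order was turned, with 2.28 at 18411 and 1.59 at 17868. The group means of both AAD6 probes differed by at most 0.247 in all 11 groups. Signal that a probe receives from DNA of another AAD copy would count toward the gene it is named for, and the probe sequences were not at hand, so the part of cross-hybridisation in these values was not tested.

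**Figure D4:**
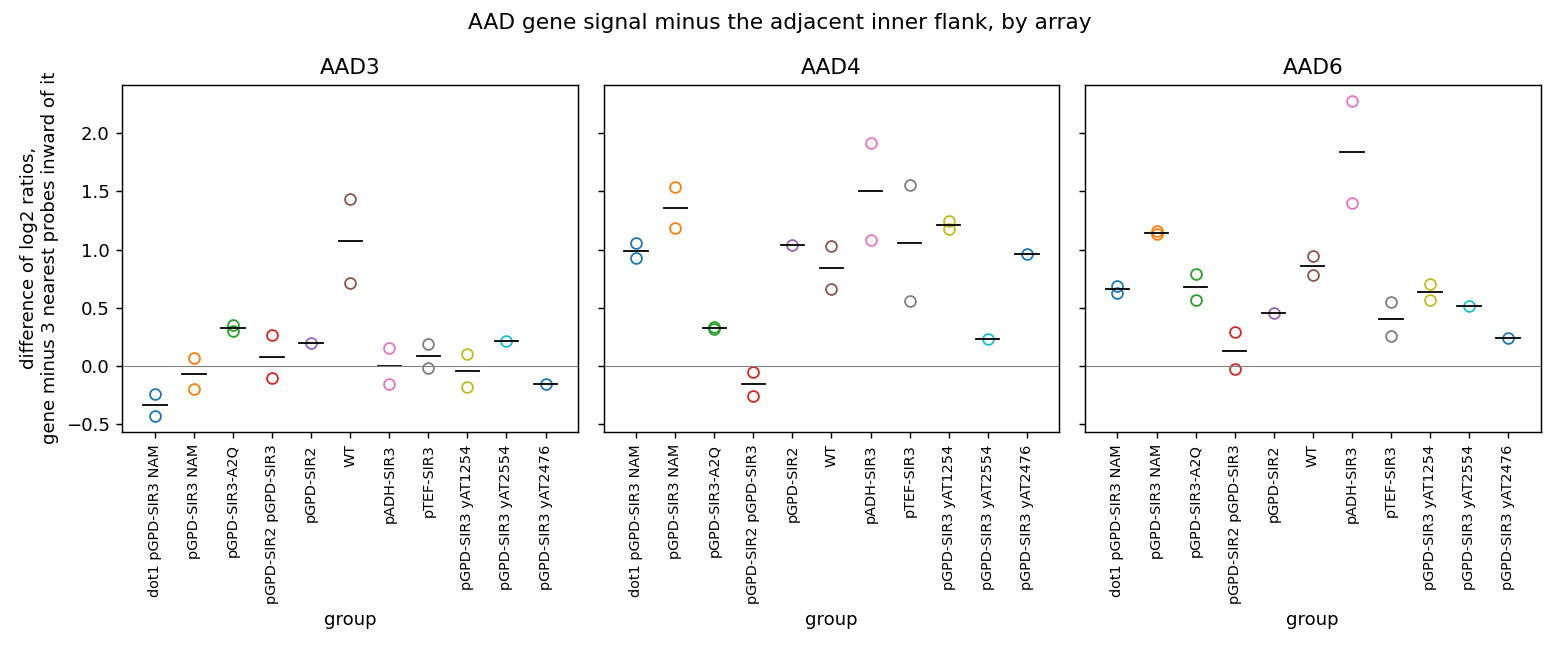
Log2 ratio of AAD3, AAD4 or AAD6 minus the mean of the 3 nearest probes outside the coding region toward the chromosome centre (y axis) on each of 19 arrays, by group (x axis). Circles are arrays and bars are group means; for AAD6 the pADH-SIR3 arrays are highest, at 2.28 and 1.40, and with SIR2 and SIR3 both AAD4 arrays lie below 0.

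AAD14 and AAD10 had too few probes measured on all arrays and far enough inside the gene for the test, and the means over the probes inside their coding regions are given as description. AAD14 (YNL331C), near the left end of chromosome 14, had 2 probes inside its coding region, 1 of them measured on all arrays, and averaged 1.23 ± 0.07 in WT, 1.96 ± 0.22 in pADH-SIR3, 3.22 ± 0.39 in pTEF-SIR3 and 3.29 ± 0.05 in pGPD-SIR3 (SD, n = 2 each). AAD10 (YJR155W), near the right end of chromosome 10, had 3 probes after a shift of -275 bp, and averaged 0.82 ± 0.12 in WT, 1.36 ± 0.34 in pADH-SIR3, 2.78 ± 0.58 in pTEF-SIR3 and 1.70 ± 0.13 in pGPD-SIR3. In pGPD-SIR3-A2Q AAD14 was at 0.37 and AAD10 at 0.55. AAD15 (YOL165C) had 0 probes inside its coding region, and AAD16 has no entry of its own. YPL088W, a putative aryl-alcohol dehydrogenase gene far from any chromosome end, lay between -0.44 and 0.16 in the means of all 11 groups.

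Across the 19 arrays the levels of AAD4 and AAD6 followed each other more closely than either followed AAD3. Pearson's r was 0.972 between AAD4 and AAD6, 0.90 between AAD3 and AAD6 and 0.806 between AAD3 and AAD4; the points share arrays and groups, so r is a description. AAD6 was the gene on another arm most like AAD4, followed by AGP3 (0.944) and AQY3 (0.942), both also on the left arm of chromosome 6. AAD6 was most like IMA1 (0.977), an isomaltase gene, then AAD4 and SEO1 (0.952), a putative permease gene. AAD3 was most like YDR541C (0.983), YLR460C (0.978) and YOL162W (0.970). On their own arms AAD3 was followed by GIT1 (0.976), a glycerophosphoinositol transporter gene, ADH7 (0.971) and RDS1 (0.968), AAD6 by AGP3 (0.934), AQY3 (0.921) and MSH4 (0.842), and AAD4 by HO (0.732), MRK1 (0.703) and GPM2 (0.684).

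Of 5 genes starting within 10 kb of AAD3, 3 were tested, YCR102C, the alcohol dehydrogenase gene ADH7 and RDS1, a zinc cluster gene linked to cycloheximide resistance. All 3 passed in pADH-SIR3 against WT, where AAD3 did not (ADH7 at 5.20 in pADH-SIR3, against 1.75 in WT, adjusted p = 0.0125), all 3 rose in pGPD-SIR3 and all 3 fell in A2Q relative to pGPD-SIR3. Of all genes 0.925% passed in the first of these comparisons, 6.67% rose in the second and 8.14% fell in the third. With the deposit as a block AAD3 passed in pADH-SIR3 against WT too, at 2.38. None of the 3 passed in A2Q against WT, where AAD3 fell (adjusted p = 0.089 to 0.163) and 1.59% of all genes passed. In the dot1 comparison 1 of 3 fell, where 24.0% of all genes fell. Near AAD6, 3 of 8 neighbours were tested. AGP3, an amino acid permease gene, was at 0.42 in pADH-SIR3, against 0.29 in WT (adjusted p = 0.928), and at 4.11 in pTEF-SIR3, against the same WT level (adjusted p = 6.89e-05). AQY3, an aquaporin-like gene, and DAK2, a dihydroxyacetone kinase gene, did not pass in pADH-SIR3 against WT either (adjusted p = 0.955 and 0.922) and rose in pTEF-SIR3, at 3.93 and 1.88 in pTEF-SIR3, against 0.57 and -0.16 in WT (adjusted p = 1.23e-05 and 0.000219). Of all genes 8.16% rose in pTEF-SIR3 against WT. DAK2 was at 3.92 in pGPD-SIR2 pGPD-SIR3, against 0.74 in pGPD-SIR3 (adjusted p = 1.66e-05). Near AAD4, 2 of 7 neighbours were tested, among them ADY3, a gene of spore formation, and neither passed in any promoter comparison with WT. ADY3 was at 0.08 in pGPD-SIR2 pGPD-SIR3, against -0.04 in WT (adjusted p = 0.47). LRG1, the other, was at 0.50 in pGPD-SIR2 pGPD-SIR3, against -0.15 in WT (adjusted p = 0.00324) and -0.10 in pGPD-SIR3 (adjusted p = 0.00869). Both rose in the dot1 comparison, where AAD4 fell (LRG1 by 0.38, ADY3 by 0.41, adjusted p = 0.0244 and 0.0087). Of all genes 19.4%, 14.5% and 51.5% passed in these comparisons.

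Other genes of aldehyde and aromatic alcohol metabolism were read from fixed lists. Of 16 aldehyde and alcohol reductases 12 were tested: 4 rose in pTEF-SIR3 against WT, with a list median of 0.23 beside 0.02 for all genes, and 3 rose in pGPD-SIR3; of all genes 8.16% and 6.67% rose in these comparisons. The largest rises were those of ADH7, with 5.93 in pTEF-SIR3 against 1.75 in WT, and of the butanediol dehydrogenase homologue BDH2, with 3.27 in pTEF-SIR3 against 0.25 in WT. Both lie within 50 kb of an end, at 6.03 and 33.4 kb. Of 8 genes of the Ehrlich pathway, which turns amino acids into fusel alcohols, 2 rose in pTEF-SIR3 against WT, the pyruvate decarboxylase genes PDC6 (0.92 against 0.09) and PDC1 (1.45 against 0.78), with a list median of 0.11, beside the same 8.16% of all genes. Of 15 genes of the regulon of Yap1, the oxidative stress factor known to induce AAD4 and AAD6, 10 were tested and 0 passed in limma in pTEF-SIR3 or pGPD-SIR3 against WT, with 1 at an unadjusted p under 0.05 in each, and medians of 0.09 and 0.01. In the dot1 comparison 2 of these 10 rose, ATR1 by 2.23 ± 0.12 (adjusted p = 1.70e-08) the most, and 4 fell, in a comparison in which 51.5% of all genes passed and 24.0% fell. Of the 4214 genes 1161 rose there. ATR1 lies 38.2 kb from an end, and of the 418 genes within 50 kb of an end 175 rose. Of 10 thiamine and vitamin B6 genes, several of which adjoin AAD6 and AAD4, only SNZ1 was tested; it fell in A2Q relative to pGPD-SIR3 (-0.57 ± 0.16, adjusted p = 0.0428) and passed in no other comparison.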

How the data were processed

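Sir3 ChIP-chip was measured on 19 two-colour arrays in 11 groups. Per the labels' protocols, DNA precipitated with an anti-Sir3 antibody was labelled with Cy5 and input DNA with Cy3 after random-primer amplification. The deposited ratio per probe was used as the authors gave it; the genome build and the steps behind the ratios are not given in the labels or files. On 5 arrays 1 to 7 deposited ratios at or below 0 were set to missing. Each ratio was turned into log2 and centred on the array median (median ratios ranged from 0.0292 to 0.942), without loess or quantile normalization; the authors' deposited series table of filled ratios served as an alternative.

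Probes with midpoints at least 100 bp inside an R64 gene (450 bp at the higher coordinate on chromosomes 10 and 11, whose best offsets were -275 and -225 bp) were averaged where at least 2 were measured on all 19 arrays, giving 4214 genes with 21821 probes. The comparisons used limma 3.58.1 (R 4.3.3) with 1 mean per group over all 19 arrays, 8 residual and 4.28 prior degrees of freedom, and Benjamini-Hochberg adjustment at 0.05 within each of 13 comparisons; groups of 1 array are assumed to vary like the others. The script was tested on simulated data. Tables and figures were made with pandas 2.3.3 and matplotlib 3.10.9. Slides were taken from the array barcodes, known for the first deposit of 12 arrays and not for the later one of 7.

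The members, lists and tests were chosen with earlier results of these data known. Named genes were the members, their family, genes starting within 10 kb, the 3 most correlated genes on other arms and on the own arm, up to 2 largest changes per list and comparison, HMRA1 and YFR057W; the text gives a selection of these. Replicate numbers did not pair the arrays: deviations of same-numbered arrays correlated between -0.35 and 0.64 over 28 pairs of groups, above 0.1 in 10.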

Additional observations from a re-analysis of the deposited data

How the results depend on the processing

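Over the 150 values of an AAD gene with 1 array left out, 117 kept direction and side of the threshold, 27 no longer passed, 1 newly passed and 5 turned sign; under the other settings these were 284, 16, 16 and 8 of 324, and none of the values that turned sign had passed. With the deposit as a block the count of AAD genes past 0.05 was 3 for pADH-SIR3 against WT, 2 for pTEF-SIR3 against pADH-SIR3, A2Q against WT and SIR2 with SIR3 against pGPD-SIR3, and 0 for NAM against pGPD-SIR3; within the first deposit alone the first 4 of these were 3, 2, 2 and 2. With arrays scaled by their internal spread it was 1 for pTEF-SIR3 against WT and 0 for pTEF-SIR3 against pADH-SIR3, A2Q against WT, SIR2 with SIR3 against pGPD-SIR3, NAM against pGPD-SIR3 and NAM against WT. With the median of a gene's probes it was 2 for SIR2 with SIR3 against pGPD-SIR3, and with only the arrays of the groups compared it was 0 for pTEF-SIR3 against pADH-SIR3, 2 for SIR2 with SIR3 against pGPD-SIR3 and 3 for NAM against pGPD-SIR3. Leaving out 1 array gave 0 to 2 for pTEF-SIR3 against pADH-SIR3 and for NAM against WT, 0 to 1 for A2Q against WT and for SIR2 with SIR3 against pGPD-SIR3, 0 in each case for NAM against pGPD-SIR3, and 0 to 3 for dot1 against NAM. Scaled arrays also lost AAD4 in dot1 against NAM and AAD3 in SIR2 with SIR3 against WT (adjusted p = 0.0827 and 0.256). The median of probes lost AAD4 in NAM against WT and in dot1 against NAM (adjusted p = 0.0563 and 0.0744). The values that turned sign were, in units of the internal spread, -2.38 for AAD3 in pTEF-SIR3 against pADH-SIR3, 0.70 for AAD4 in pGPD-SIR3 against pTEF-SIR3, 0.0635 for AAD3 in pGPD-SIR2 against WT and -1.58 for AAD6 in SIR2 with SIR3 against pGPD-SIR3. For AAD6 in pGPD-SIR3 against pTEF-SIR3 they were -0.44 when deposit was a block, -0.48 in the first deposit and -0.69 with the slide as a block, and AAD4 in NAM against pGPD-SIR3 was at 0.0115 when deposit was a block. Leaving out 1 array gave -0.68 to 0.47 for AAD4 and -0.48 to 0.49 for AAD6 in pGPD-SIR3 against pTEF-SIR3, and -0.28 to 0.44 for AAD6 in SIR2 with SIR3 against pGPD-SIR3. The causes were not tested. The replicate number as a block, which does not pair the arrays across all groups, left the number of AAD genes past 0.05 as it was in all 13 comparisons (0, 3, 3, 1, 0, 1, 3, 0, 1, 3, 1, 3 and 3 in the order of the plot of differences). A fit without probes that match the genome a second time was intended and not run, because no probe or genome sequence was used here.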
